A study of Mus musculus with 12 samples.

Results

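The genes described here are 39 that encode complement and clotting proteins which hepatocytes make and release into the blood. They were taken by a fixed list of symbols from the 53465 gene identifiers of a liver RNA-seq count table, and all 39 passed the filter on low counts that left 14778 genes for testing. Of them, 18 belong to the complement cascade and 21 to clotting and the dissolution of clots. The mice were hepatocyte-specific Pld1 knockouts, called KO here, and floxed Pld1 controls, and the study asks how loss of phospholipase D1, an enzyme that releases phosphatidic acid from membrane phospholipid, bears on fatty liver disease. The study measured 4 groups of 3 liver libraries each: KO livers after 20 weeks of high-fat diet (HFD), control livers after the same diet, KO livers on normal chow and control livers on normal chow. The sample labels write the genotypes as Pld1 knockdown and WT, while the sample descriptions give Pld1(H)-KO and Pld1-Flox. The labels used here give no sex, age or strain, no name for the driver of hepatocyte deletion and no time on chow.

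Complement is a chain of plasma proteins that cleave each other on a foreign or damaged surface. Its classical and lectin arms start from antibody or sugar recognition, the alternative arm amplifies on the surface itself, all of them converge on C3, and the terminal proteins C5 to C9 then assemble a pore in the target membrane. Clotting is likewise a chain of proteases, several of which need vitamin K for their maturation, and it ends in thrombin, which turns fibrinogen into fibrin, while plasmin dissolves the clot. The liver makes most of both sets of proteins, and several of them, fibrinogen and C3 among them, are known as acute-phase proteins whose production rises in inflammation.

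Libraries held 18215008 to 22378180 counted reads. CPM denotes counts per 1000000 reads of the TMM-adjusted library total, given as mean ± SD over the 3 libraries of a group. Pld1 itself was listed at 1.93 to 2.94 CPM in HFD-fed KO livers and 6.48 to 7.72 CPM in HFD-fed control livers, and at 3.45 to 4.67 CPM in chow-fed KO livers and 9.07 to 11.3 CPM in chow-fed control livers, so the genotype labels and the Pld1 levels go together. The remaining Pld1 level was 36.4% of control on HFD and 38.2% on chow. Whether each library stands for a separate animal is not said in the labels, so p-values cover the variation among these 3 libraries a group, which could be technical. That spread was small, with a median coefficient of variation of 1.90% within groups over the 37 members with at least 500 counts in every library. The smallest difference called, that of Serpinc1 between diets in KO livers, left HFD-fed livers at 95.2% of the level on chow. In whole liver, fewer cells of a type and less RNA per cell cannot be told apart. All 6 hepatocyte markers tested of the 7 listed (albumin and other plasma protein genes) were abundant, with a summed level of 94889 to 99348 CPM in HFD-fed KO livers, 85307 to 85838 CPM in HFD-fed controls, 84134 to 85839 CPM in chow-fed KO livers and 88748 to 89491 CPM in chow-fed controls.

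A pair of gene clusters that carry the largest values is shown by their promoters, since the members of each lie side by side in the genome. The fibrinogen genes changed together, while C8a and C8b differed in course. On mouse chromosome 3 the fibrinogen chain genes Fgg, Fga and Fgb follow each other with gaps of 11.03 and 6.51 kb, and on chromosome 4 C8b and C8a lie 11.1 kb apart on opposite strands by the GENCODE M21 annotation of GRCm38. The sequences are the bases just upstream of each gene's annotated start from the RefSeq promoter table for GRCm38.p6, written 5′ to 3′ on the gene's own strand. For Fga the stretch ends where the GENCODE gene begins, upstream of the RefSeq start. Capitals mark matches to the motif letters searched on both strands: GTTAAT (HNF1 half-site), CAAAGTC (HNF4 core), TTGCNNAA (C/EBP), CTGGGA (the hexamer of the IL-6 response element) and TTCNNNGAA (STAT).
Fgg, chr3:83007474-83007723, plus strand: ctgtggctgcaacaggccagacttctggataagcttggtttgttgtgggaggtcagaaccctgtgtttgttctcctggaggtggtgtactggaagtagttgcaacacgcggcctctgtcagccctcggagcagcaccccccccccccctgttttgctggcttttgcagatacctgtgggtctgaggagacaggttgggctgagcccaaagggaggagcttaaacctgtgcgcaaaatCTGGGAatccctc
Fga, chr3:83025903-83026075, plus strand: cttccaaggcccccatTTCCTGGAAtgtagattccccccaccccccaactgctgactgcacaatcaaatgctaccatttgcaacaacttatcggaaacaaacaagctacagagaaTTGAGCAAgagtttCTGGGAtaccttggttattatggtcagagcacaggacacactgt
Fgb, chr3:83049864-83050113, minus strand: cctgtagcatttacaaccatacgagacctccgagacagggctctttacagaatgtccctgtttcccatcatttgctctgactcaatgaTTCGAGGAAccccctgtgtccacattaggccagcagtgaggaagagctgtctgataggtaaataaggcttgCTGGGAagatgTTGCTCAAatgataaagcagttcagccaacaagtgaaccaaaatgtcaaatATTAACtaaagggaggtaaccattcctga
C8a, chr4:104876399-104876648, minus strand: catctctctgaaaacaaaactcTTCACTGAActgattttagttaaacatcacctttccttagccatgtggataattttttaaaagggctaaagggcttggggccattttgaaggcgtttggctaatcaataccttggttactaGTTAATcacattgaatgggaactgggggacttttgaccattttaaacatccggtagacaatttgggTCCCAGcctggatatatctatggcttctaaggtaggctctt
C8b, chr4:104766067-104766316, plus strand: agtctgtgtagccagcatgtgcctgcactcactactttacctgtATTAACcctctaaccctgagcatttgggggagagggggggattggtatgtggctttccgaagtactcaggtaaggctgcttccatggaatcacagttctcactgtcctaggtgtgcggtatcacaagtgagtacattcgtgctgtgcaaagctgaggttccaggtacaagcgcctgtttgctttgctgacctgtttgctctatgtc

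Fgb and Fga each held a match to the STAT, C/EBP and CTGGGA letters within these stretches, and Fgb also held the HNF1 half-site on its reverse strand (ATTAAC). Fga's HNF1 match lies downstream of the printed stretch, 43 bases before its RefSeq start. Fgg held CTGGGA alone among the 5 motifs. C8a held a STAT match, the HNF1 half-site and CTGGGA on its reverse strand, and C8b held the HNF1 half-site alone. Across the 31 members with a promoter in the table, in a window from 250 bases before to 50 bases after the start, GTTAAT was found in 32.3% of members and 8.24% of all 27025 genes, TTGCNNAA in 38.7% and 12.2%, TTCNNNGAA in 25.8% and 9.55%, CTGGGA in 61.3% and 34.8%, and CAAAGTC in 3.23% and 4.995%. In F9, Masp2 and Vtn a STAT match and a CTGGGA match overlap. C2, C4b, Cfb, Cfi, Kng1, Masp1, Plg and Proc were not in the table. A match is a description of letters and was not set against any binding measurement.

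On HFD, most complement and clotting genes were higher in KO than in control livers. Tests used the quasi-likelihood method of edgeR on all 14778 genes, with Benjamini-Hochberg adjusted p of at most 0.05 as the threshold, and log2 FC stands for the fitted log2 fold change. In KO livers 30 members rose and 1 fell, against 32.4% of all genes called (16.7% higher and 15.6% lower). The median log2 fold change of the members was 0.27, against -0.0073 over all genes. Abundant genes are called more often, so the 2762 genes with a mean of at least 50 CPM are the closer background, and 37 members are among them: 63.9% of those genes were called in the same comparison, 39.9% higher and 24.0% lower. Most member differences were small. Called and at least 1.5-fold were 3 of the 39 members, C8b, C6 and F7, against 7.19% of all tested genes. The fibrinogen genes, C3, C9, C8a, vitronectin, F11 and Klkb1 lay from 1.25-fold (Fga) to 1.45-fold (Vtn). All 6 hepatocyte markers tested also rose in this comparison, with a median log2 fold change of 0.27, as did 6 of 8 markers of Kupffer cells and macrophages and 6 of 8 tested markers of neutrophils, whose summed level was 5.68 to 6.18 CPM in KO livers and 0.900 to 1.20 CPM in controls. Of 6 tested erythroid markers 5 rose and 1 fell, with a summed level of 147 to 163 CPM in KO livers and 114 to 120 CPM in controls, while 4 of 7 stellate cell and fibroblast markers and 2 of 5 cholangiocyte markers fell. The part of these cell types in the members' differences was not tested.

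On chow, 23 members rose and 6 fell in KO livers, against 31.2% of all genes called (15.8% higher and 15.3% lower) and a share of 59.7% among genes of at least 50 CPM, where fewer genes were higher (22.9%) than lower (36.7%). The members' median log2 fold change was 0.14, against -0.0026 over all genes. Called and at least 1.5-fold were 4 of the 39 members, Fga, Fgb, Fgg and C8a, against 9.8% of all tested genes. The 6 that fell were C8g, Masp2, Proc, F13b, Serpinc1 and Serpind1. The chow comparison and the HFD comparison share no library, and 21 members rose in both. The share of all genes that rose in both is not given here, so this count has no background. Of the hepatocyte markers 3 rose and 3 fell on chow, all 8 Kupffer cell and macrophage markers rose, and 7 of 8 tested neutrophil markers rose, with a summed neutrophil level of 45.3 to 48.4 CPM in KO livers and 15.5 to 16.3 CPM in controls. Among other cell types 4 of 6 tested erythroid markers rose and 1 fell, and 5 of 7 endothelial, 4 of 7 stellate cell and fibroblast and 2 of 5 cholangiocyte markers rose; their part was not tested.

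HFD moved the genes the other way. In control livers 33 members fell and 2 rose on HFD, against 37.7% of all genes called (18.8% higher and 18.9% lower) and 67.6% of genes of at least 50 CPM, and the members' median log2 fold change was -0.31. Called and at least 1.5-fold were 12 of the 39 members, against 12.1% of all tested genes. In KO livers 27 fell and 6 rose, against 36.6% of all genes called (18.5% higher and 18.1% lower) and 67.4% of the abundant genes, of which 46.6% were higher and 20.7% lower, with a members' median of -0.30. In KO livers 13 of the 39 were called and at least 1.5-fold, against 11.4% of all tested genes. Of the members 27 fell in both diet comparisons. The share of all genes that did so is not given here, so this count has no background. These 2 diet comparisons share no library. Each shares a group of libraries with both genotype comparisons, so values that rest on the same group are not independent. Hepatocyte markers fell in control livers on HFD (5 of 6), while in KO livers 4 rose and 2 fell; neutrophil markers fell on HFD in both genotypes (7 of 8 tested in each), as did erythroid markers (6 of 6 tested in controls and 5 of 6 in KO livers). In controls on HFD 2 of 8 Kupffer cell and macrophage, 5 of 7 endothelial and 6 of 7 stellate cell and fibroblast markers rose. In KO livers on HFD all 8 Kupffer cell and macrophage markers (median log2 fold change -0.66), 4 of 5 cholangiocyte markers and 3 of 7 stellate cell and fibroblast markers fell, while 2 of the stellate cell and fibroblast markers and 1 of 7 endothelial markers rose. The part of these cell types was not tested.

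**Figure D1:**
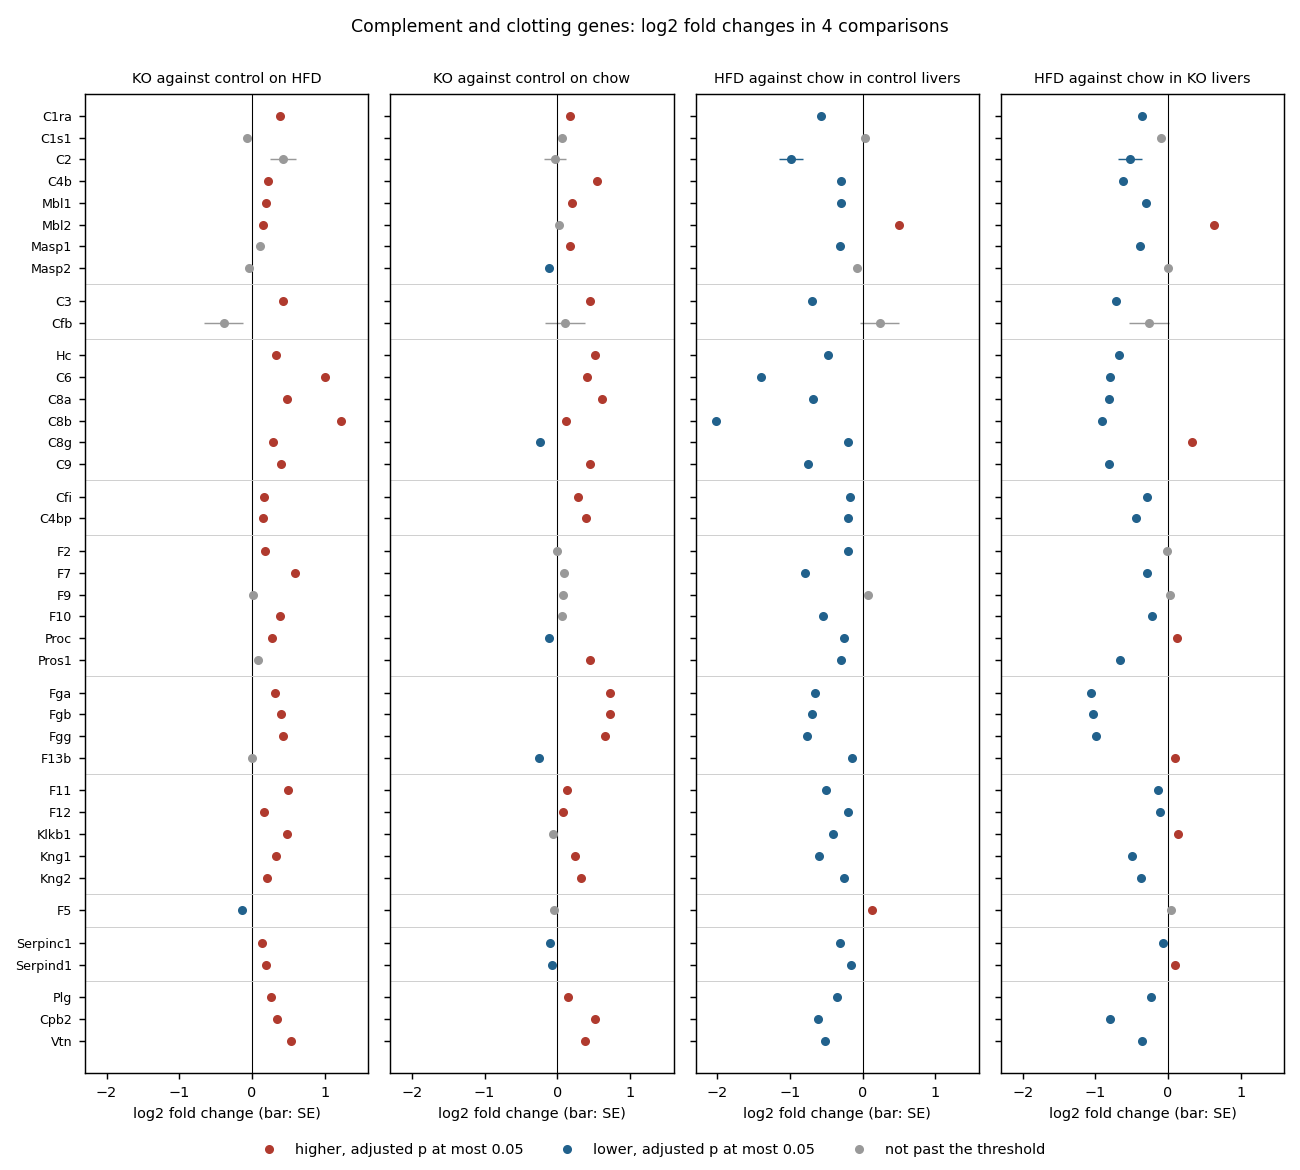
Log2 fold changes (x axis) of the 39 genes (rows, grouped by role) in 4 comparisons, with SE bars that are mostly smaller than the points. Most points lie right of 0 for KO against control on both diets (30 and 23 past the threshold) and left of 0 for HFD against chow (33 in control and 27 in KO livers), and C2 and Cfb, with few reads, have the widest bars.

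Both cascades changed by similar amounts when their reads were summed, but less alike gene by gene in some comparisons. The median log2 fold change in KO livers was 0.26 for complement and 0.27 for clotting genes on HFD, and 0.19 and 0.092 on chow. On HFD against chow the median was -0.30 for complement and -0.35 for clotting in controls, and -0.41 and -0.22 in KO livers. The 18 complement genes added up to 13847, 13635 and 13854 CPM in HFD-fed KO livers and 10853, 10893 and 10823 CPM in HFD-fed controls, and to 20941, 20925 and 21071 CPM in chow-fed KO livers and 15862, 15633 and 15597 CPM in chow-fed controls. The 21 clotting genes added up to 27208, 27110.4 and 26874 CPM in HFD-fed KO livers and 21916, 21802 and 21741 CPM in HFD-fed controls. Their sum on chow was 40934, 40557 and 40758 CPM in KO livers and 30855, 30466 and 30715 CPM in controls. For both sums the 4 groups did not overlap, and their order was the same: chow-fed KO livers highest, then chow-fed controls, then HFD-fed KO livers, then HFD-fed controls. The KO to control ratio of the group means was 1.27 for complement and 1.24 for clotting on HFD, and 1.34 and 1.33 on chow. The HFD to chow ratio was 0.692 and 0.711 in control livers and 0.657 and 0.664 in KO livers. Together the 39 genes took 3.97% to 3.999% of all counts in HFD-fed KO livers, 3.38% to 3.40% in HFD-fed controls, 6.14% to 6.19% in chow-fed KO livers and 4.56% to 4.59% in chow-fed controls.

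A few very abundant transcripts carried much of these sums. Per kilobase of the longest principal transcript, chow-fed control livers held most RNA of Fga (2149 ± 12.5 CPM per kb), Fgg (1994 ± 4.09), Vtn (1895 ± 35.3), C3 (1568 ± 21.8) and Kng1 (1239 ± 4.27), and least of Cfb (0.466 ± 0.0564), C2 (2.73 ± 0.224) and Masp1 (12.8 ± 0.253). Without the 3 fibrinogen chains, the KO to control ratio of the clotting sum was 1.21 on HFD and 1.10 on chow, so the clotting excess of chow-fed KO livers lay largely in fibrinogen. Without C3, the complement ratio was 1.21 on HFD and 1.31 on chow.

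**Figure D2:**
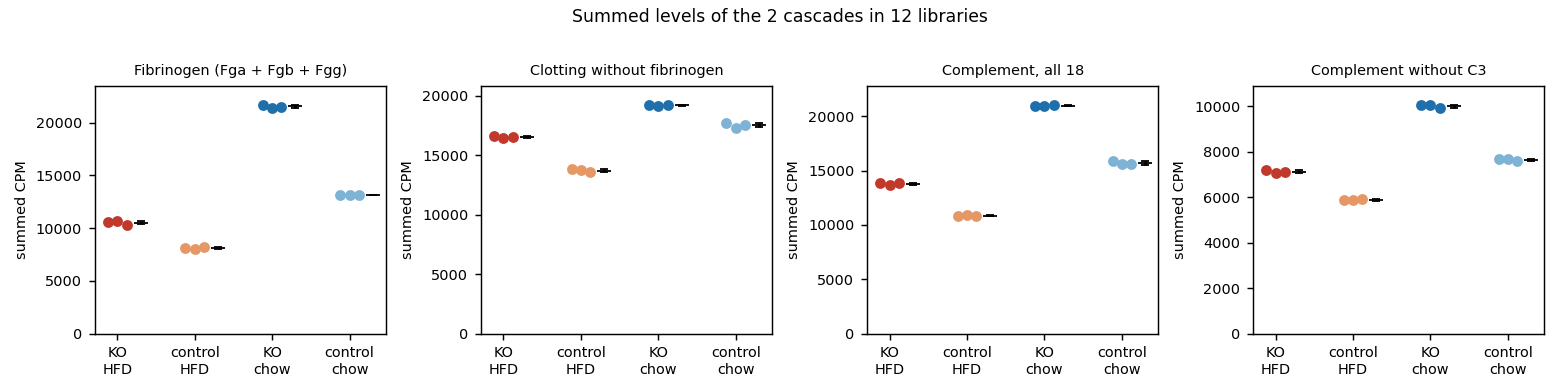
Summed CPM (y axis, from 0) of the fibrinogen chains, the other clotting genes, all 18 complement genes and the complement genes without C3, for 3 libraries per group with mean and SD beside them. Chow-fed KO livers are highest in every panel, and the gap to chow-fed controls is widest for fibrinogen (means of 21559 CPM in KO livers and 13167 CPM in controls).

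C3, the protein on which all complement arms converge, was the most abundant complement transcript per kilobase. It had 6666, 6579 and 6745 CPM in HFD-fed KO livers and 4979.9, 5031 and 4911 CPM in HFD-fed controls. On chow it had 10902, 10874 and 11151 CPM in KO livers and 8179, 7972 and 8001 CPM in controls. The groups did not overlap on either diet, and C3 rose in KO livers on HFD (log2 FC 0.42, SE 0.013, adjusted p = 8.73e-23) and on chow (log2 FC 0.45, SE 0.013, adjusted p = 1.51e-23). HFD lowered it to 61.8% of the chow level in controls and to 60.7% in KO livers, and the interaction of diet and genotype was -0.025 ± 0.019 (SE, adjusted p = 0.343). With the trend of fold change with transcript length and GC content removed, the interaction became 0.18 and was called (adjusted p = 7.88e-12).

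The genes that start the classical and lectin arms changed in mixed directions. C1ra, which encodes a protease of the C1 complex, had 222, 219 and 218 CPM in HFD-fed KO livers and 167, 167 and 171 CPM in HFD-fed controls. On chow, C1ra was at 287, 285 and 273 CPM in KO livers and 250.01, 248 and 253 CPM in controls. No KO library was as low as any control of its diet, and C1ra rose on HFD (log2 FC 0.38, SE 0.029, adjusted p = 1.37e-12) and on chow (log2 FC 0.17, SE 0.029, adjusted p = 1.46e-05). Its neighbour C1s1, for the partner protease of the same complex, had 292 to 329.5 CPM in HFD-fed KO livers and 308 to 342 CPM in HFD-fed controls and passed no test in the 5 comparisons, with adjusted p from 0.0564 to 0.543. Without HFD-fed KO replicate 3, C1s1 was called lower in KO livers on HFD (log2 fold change -0.11, adjusted p = 0.0286). C1s1 was also called lower for HFD against chow in KO livers in 4 fits that left out 1 library (-0.14 to -0.093, adjusted p = 0.00583 to 0.0475), and its interaction was called in 4 such fits (-0.17 to -0.15, adjusted p = 0.0129 to 0.0469). With no count filter both were called as well (-0.088, adjusted p = 0.0149, and -0.12, adjusted p = 0.0187), as they were with a minimum of 5 CPM in a group mean (-0.12, adjusted p = 0.0204, and -0.15, adjusted p = 0.0409). The diet difference was further called with the 2 groups alone (-0.097, adjusted p = 0.0368). The genes C1ra and C1rb, and C1s1 and C1s2, are close copies, so their counts are uncertain where reads fit both.

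C4b, for the C4 protein that both arms cleave, rose more on chow than on HFD. It averaged 1739.7 ± 49.9 CPM in HFD-fed KO livers and 1487 ± 12.1 CPM in HFD-fed controls. On chow, C4b was at 2666 ± 8.68 CPM in KO livers and 1823 ± 22.7 CPM in controls. The fitted changes were 0.23 on HFD (adjusted p = 7.94e-12) and 0.55 on chow (adjusted p = 4.24e-22) in the edgeR fit, though its near copy C4a leaves the split of reads between them uncertain. The size of the C4b interaction depended on the setting. It was -0.32 in the main fit and ranged from -0.35 to -0.11 over 22 alternative fits, in 21 of which it was called. C2, which joins C4 in the convertase, had few reads, with 4.72, 6.01 and 4.01 CPM in HFD-fed KO livers, 2.83, 3.24 and 4.78 CPM in HFD-fed controls, 6.54, 6.39 and 8.28 CPM in chow-fed KO livers and 6.53, 7.62 and 7.49 CPM in chow-fed controls. The genotype groups overlapped on each diet and neither difference was called, while on HFD C2 fell to 50.1% of chow in controls (log2 FC -0.98, SE 0.17, adjusted p = 1.13e-05) and to 69.5% in KO livers (log2 FC -0.53, SE 0.16, adjusted p = 0.00985). The fall in KO livers was not called without HFD-fed KO replicate 3 or without chow-fed KO replicate 3 (log2 fold change -0.40 in each case, adjusted p = 0.0782 to 0.0841), and the genotype difference on HFD was called without HFD-fed KO replicate 3 or HFD-fed control replicate 3 (0.55 to 0.69, adjusted p = 0.00496 to 0.0243). It was also called with no count filter (0.43, adjusted p = 0.0382) and with the trend of fold change with transcript length and GC content removed under a replicate block (0.45, adjusted p = 0.0488).

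Mbl1 and Mbl2 encode the 2 mouse mannose-binding lectins, which recognise sugars and start the lectin arm, and HFD moved them in opposite directions. Mbl2 had 406, 399 and 384 CPM in HFD-fed KO livers and 351, 351 and 367 CPM in HFD-fed controls. On chow, Mbl2 was at 264, 254 and 249 CPM in KO livers and 250.2, 254 and 252 CPM in controls. Every HFD library was above every chow library, and Mbl2 rose on HFD in controls (log2 FC 0.50, SE 0.029, adjusted p = 9.52e-16) and in KO livers (log2 FC 0.63, SE 0.029, adjusted p = 1.69e-18), the only member that rose in both. Mbl1 fell on HFD, with log2 FC -0.30 in controls and -0.30 in KO livers (adjusted p = 5.37e-09 and 3.82e-09). The ratio of Mbl2 to Mbl1 per kilobase was 3.34 ± 0.0718 in HFD-fed KO livers and 3.43 ± 0.0843 in HFD-fed controls, against 1.75 ± 0.0354 in chow-fed KO livers and 1.98 ± 0.0672 in chow-fed controls. Mbl2 also rose in KO livers on HFD (log2 FC 0.15, SE 0.029, adjusted p = 6.75e-05), and this call was lost when the trend of fold change with transcript length and GC content was removed (0.066, adjusted p = 0.05548).

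The lectin-arm protease Masp1 fell on HFD in controls (log2 FC -0.31, SE 0.043, adjusted p = 4.44e-07) and in KO livers (log2 FC -0.39, SE 0.043, adjusted p = 5.42e-09). It rose in KO livers on chow (log2 FC 0.18, SE 0.042, adjusted p = 0.00112) and averaged 59.2 ± 1.37 CPM in HFD-fed KO livers and 55.1 ± 1.12 CPM in HFD-fed controls, a difference of 0.11 that was not called (adjusted p = 0.0659) but was with the length and GC trend removed (0.21, adjusted p = 0.000223). Masp2 fell slightly in KO livers on chow (log2 FC -0.11, SE 0.034, adjusted p = 0.00858), a call lost without chow-fed control replicate 1 (-0.089, adjusted p = 0.0760). Masp2 shares 54.9% of its exonic bases with Tardbp on the opposite strand, the strand setting of the counting is unknown, and Tardbp fell in the same comparison, so the reads of the 2 genes may not be told apart. Cfb, the protease component of the alternative arm, had 20 to 44 counts per library and averaged 1.15 ± 0.136 CPM in HFD-fed KO livers, 1.51 ± 0.408 CPM in HFD-fed controls, 1.38 ± 0.131 CPM in chow-fed KO livers and 1.28 ± 0.154 CPM in chow-fed controls, with overlapping groups and no call. C2 and Cfb share 42.8% and 79.5% of their exonic bases with the readthrough gene Gm20547 on the same strand, which was listed at 0 in all 12 libraries, so their low counts may be incomplete.

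The terminal genes C8b and C6 held the largest changes of the 39 between genotypes on HFD, and all 6 terminal genes rose in KO livers on HFD. C8b, for a chain of the C8 protein that joins the membrane pore, had 187, 182 and 179.8 CPM in HFD-fed KO livers and 76.9, 79.1 and 79.4 CPM in HFD-fed controls. On chow it had 344, 351 and 338 CPM in KO livers and 320.03, 311 and 319 CPM in controls. Groups did not overlap in any comparison, but the genotype gap was 2.33-fold on HFD (log2 FC 1.22, SE 0.031, adjusted p = 2.29e-25) and 1.09-fold on chow (log2 FC 0.12, SE 0.028, adjusted p = 0.00122). HFD lowered C8b to 24.8% of chow in control livers and to 53.3% in KO livers, and the interaction was 1.10 ± 0.042 (SE, adjusted p = 2.62e-20).

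C6, the next pore component after C5, followed a like course at lower contrast. Its levels were 212, 212 and 206 CPM in HFD-fed KO livers and 102, 107 and 106 CPM in HFD-fed controls. On chow, C6 was at 366, 367 and 368 CPM in KO livers and 285, 273 and 272 CPM in controls. Every KO library exceeded every control library of its diet, by 2.002-fold on HFD (log2 FC 1.00, SE 0.031, adjusted p = 3.61e-23) and 1.33-fold on chow (log2 FC 0.41, SE 0.029, adjusted p = 1.77e-13). C9, which polymerises to form the pore wall, had 424, 418 and 403 CPM in HFD-fed KO livers and 299, 316 and 327 CPM in HFD-fed controls. Chow-fed livers had 736, 736 and 709 CPM of C9 in KO mice and 522, 530.4 and 539 CPM in controls. C9 rose on HFD (log2 FC 0.40, SE 0.029, adjusted p = 2.53e-13) and chow (log2 FC 0.46, SE 0.028, adjusted p = 4.98e-15), and its interaction was -0.053 ± 0.040 (SE, adjusted p = 0.344). The ratio of C9 to C6 per kilobase was 2.78 ± 0.0294 in HFD-fed KO livers and 4.21 ± 0.121 in HFD-fed controls, and it was 2.78 ± 0.0671 in chow-fed KO livers and 2.69 ± 0.111 in chow-fed controls, so that HFD-fed controls stood above the other groups.

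Hc, the mouse gene for C5, and C8a, for the alpha chain of C8, rose on both diets, with larger fitted changes on chow. Hc averaged 973 ± 10.04 CPM in HFD-fed KO livers and 777 ± 5.27 CPM in HFD-fed controls. On chow, Hc was at 1551 ± 21.2 CPM in KO livers and 1086 ± 11.5 CPM in controls, with fitted changes in KO livers of 0.33 on HFD and 0.51 on chow. C8a averaged 586 ± 11.3 CPM in HFD-fed KO livers and 420.4 ± 4.30 CPM in HFD-fed controls. Chow-fed livers had 1030.4 ± 4.38 CPM of C8a in KO mice and 673 ± 9.32 CPM in controls, with fitted changes of 0.48 on HFD and 0.61 on chow. The interaction of diet and genotype was called for both (-0.19 for Hc and -0.14 for C8a), but not with the trend of fold change with transcript length and GC content removed (-0.038, adjusted p = 0.255 for Hc, and -0.028, adjusted p = 0.476 for C8a). The 3 chain genes of C8 thus differed in course. C8g, for the gamma chain, had 369 to 370.3 CPM in HFD-fed KO livers and 299 to 303 CPM in HFD-fed controls. On chow, C8g was at 291 to 302 CPM in KO livers and 339.9 to 355 CPM in controls. It rose in KO livers on HFD (log2 FC 0.30, SE 0.026, adjusted p = 5.94e-11) and fell on chow (log2 FC -0.23, SE 0.027, adjusted p = 1.12e-08), with the genotypes apart on each diet. Per kilobase, the ratio of C8b to C8g was 0.255 ± 0.00589 in HFD-fed KO livers and 0.134 ± 0.00242 in HFD-fed controls, against 0.599 ± 0.0171 in chow-fed KO livers and 0.469 ± 0.0109 in chow-fed controls. These ratios compare transcripts within a library and say nothing of the proteins.

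**Figure D3:**
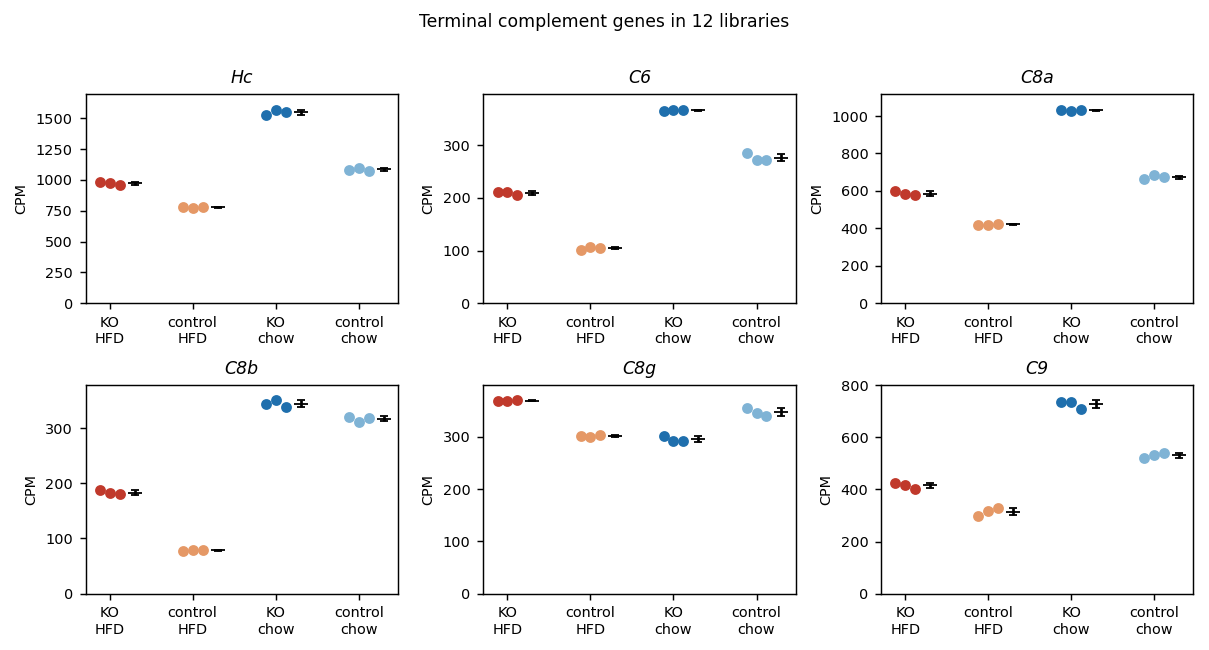
CPM (y axis, from 0) of the 6 terminal complement genes in each of 12 liver libraries, with the mean and SD of each group. Hc, C6, C8a, C8b and C9 are lowest in HFD-fed controls (C8b and C6 at means of 78.5 and 105 CPM), while C8g is highest in HFD-fed KO livers (369 CPM).

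Both complement regulators in the set rose in KO livers, again more on chow. C4bp, which displaces the C4-containing convertase, had 690.5, 695 and 666 CPM in HFD-fed KO livers and 604, 608 and 629 CPM in HFD-fed controls. On chow, C4bp was at 934, 933 and 919 CPM in KO livers and 706, 713 and 695 CPM in controls. No KO library overlapped its control group, with log2 FC 0.16, SE 0.023, adjusted p = 1.45e-06 on HFD and log2 FC 0.40, SE 0.023, adjusted p = 7.53e-16 on chow. Cfi, the protease that degrades C3b and C4b, had 637, 618 and 620.2 CPM in HFD-fed KO livers and 557, 547 and 561 CPM in HFD-fed controls. Chow-fed livers had 768, 771 and 744 CPM of Cfi in KO mice and 621, 625 and 630.4 CPM in controls. Its groups were likewise apart, with fitted changes in KO livers of 0.17 on HFD and 0.28 on chow (adjusted p = 2.58e-07 and 3.97e-12).

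The fibrinogen genes, whose 3 chains are assembled into 1 protein in the hepatocyte, changed together. Fga had 4428, 4459.98 and 4290.2 CPM in HFD-fed KO livers and 3501, 3513 and 3533 CPM in HFD-fed controls. On chow, Fga was at 9274, 9209.8 and 9137 CPM in KO livers and 5589, 5525 and 5564 CPM in controls. Every KO library lay above every control of its diet. Fgb had 3484, 3462 and 3383 CPM in HFD-fed KO livers and 2608, 2609.8 and 2616 CPM in HFD-fed controls. Chow-fed livers had 7089, 6972 and 6983 CPM of Fgb in KO mice and 4218, 4246 and 4221 CPM in controls. The same separation held for Fgb. Fgg had 2646, 2731 and 2666 CPM in HFD-fed KO livers and 1993, 1938 and 2036 CPM in HFD-fed controls. Chow-fed livers had 5359, 5251 and 5402 CPM of Fgg in KO mice and 3372, 3381 and 3385 CPM in controls. For each chain the 4 groups were fully apart, in the same order as the cascade sums. On chow the KO livers held 1.66-fold the Fga (log2 FC 0.73, SE 0.014, adjusted p = 2.9e-29), 1.66-fold the Fgb (log2 FC 0.73, SE 0.014, adjusted p = 3.75e-29) and 1.58-fold the Fgg (log2 FC 0.66, SE 0.017, adjusted p = 1.84e-25) of controls. On HFD the folds were 1.25, 1.32 and 1.35, and the interactions were -0.41, -0.33 and -0.23 (adjusted p = 1.05e-17, 3.19e-15 and 2.54e-09).

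In KO livers the fibrinogen sum was 10517 ± 161 CPM on HFD and 21559 ± 148 CPM on chow, a ratio of 0.488. In control livers the sum was 8116 ± 62.95 CPM on HFD and 13167 ± 13.5 CPM on chow, a ratio of 0.616. The proportion of the chains stayed within narrow limits, with an Fga to Fgb ratio per kilobase of 1.88 ± 0.0160 in HFD-fed KO livers, 1.98 ± 0.00601 in HFD-fed controls, 1.93 ± 0.0108 in chow-fed KO livers and 1.94 ± 0.0180 in chow-fed controls. Whether the motif matches in the printed promoters bear on these levels was not tested. F13b, for the carrier subunit of the fibrin-crosslinking factor XIII, did not follow the fibrinogen chains: it fell in chow-fed KO livers (log2 FC -0.25, SE 0.031, adjusted p = 5.43e-08), and on HFD it averaged 182 ± 3.93 CPM in KO livers and 182 ± 3.11 CPM in controls (adjusted p = 0.949).

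Of the vitamin K-dependent factors, the proteases of the tissue factor arm differed between genotypes mostly on HFD. F7, which binds tissue factor to start clotting, had 107, 105 and 107 CPM in HFD-fed KO livers and 70.4, 75.9 and 65.2 CPM in HFD-fed controls. On chow, F7 was at 131, 127 and 133 CPM in KO livers and 123, 118 and 126 CPM in controls. Groups did not overlap on either diet, and F7 rose 1.51-fold on HFD (log2 FC 0.59, SE 0.043, adjusted p = 2.95e-13), while the chow difference of 0.092 was not called (adjusted p = 0.0842), except with a minimum of 5 CPM in a group mean or the 2 groups alone (0.10 and 0.094, adjusted p = 0.0462 and 0.0366). F10, which lies 1498 bases from F7 and encodes the protease that cleaves prothrombin, had 433, 427 and 423 CPM in HFD-fed KO livers and 333, 328 and 326 CPM in HFD-fed controls. Chow-fed livers had 509, 492 and 498 CPM of F10 in KO mice and 491, 464 and 483 CPM in controls. It rose on HFD (log2 FC 0.38, SE 0.026, adjusted p = 8.57e-14) and missed the threshold on chow (0.061, adjusted p = 0.0698), where it was called without chow-fed control replicate 1 (0.078, adjusted p = 0.0411) and in 4 other alternatives (0.062 to 0.073, adjusted p = 0.0234 to 0.0464). The interaction was 0.50 ± 0.059 (SE, adjusted p = 2.67e-08) for F7 and 0.32 ± 0.036 (SE, adjusted p = 1.66e-08) for F10.

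F2, for prothrombin, the most abundant of these transcripts, averaged 2289.9 ± 44.1 CPM in HFD-fed KO livers and 2021 ± 63.1 CPM in HFD-fed controls. On chow, F2 was at 2317 ± 31.8 CPM in KO livers and 2325 ± 33.2 CPM in controls. It rose on HFD (log2 FC 0.18, SE 0.020, adjusted p = 5.39e-09), and its groups overlapped on chow (-0.0051, adjusted p = 0.881), where it was called lower with the length and GC trend removed (-0.095, adjusted p = 1.33e-05). F9, on the X chromosome, averaged 218 to 222 CPM in both KO groups and 207 to 219 CPM in both control groups and passed no test, though it was called on chow without chow-fed KO replicate 3 (0.11, adjusted p = 0.0264) or with the length and GC trend removed (0.12, adjusted p = 0.00126). Its difference between diets in controls was called with that trend removed or with the 2 groups alone (0.095 and 0.078, adjusted p = 0.00976 and 0.0488). The anticoagulant pair of protein C and its cofactor protein S moved in opposite ways on chow. Pros1, for protein S, had 90.7, 86.5 and 87.3 CPM in chow-fed KO livers and 63.6, 68.8 and 61.3 CPM in chow-fed controls (log2 FC 0.45, SE 0.044, adjusted p = 3.7e-10), and 56.3, 57.8 and 53.5 CPM in HFD-fed KO livers and 52.3, 52.9 and 52.6 CPM in HFD-fed controls, a difference of 0.086 that was not called (adjusted p = 0.162) but was with the length and GC trend removed (0.14, adjusted p = 0.0125). Proc, for protein C, fell on chow (log2 FC -0.11, SE 0.025, adjusted p = 0.000781) and rose on HFD (log2 FC 0.27, SE 0.025, adjusted p = 1.09e-10).

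All 5 contact-system genes, whose products can start clotting on negatively charged surfaces and release bradykinin, rose in KO livers on HFD. Klkb1, for plasma prekallikrein, had 191, 196 and 181 CPM in HFD-fed KO livers and 134, 134 and 136 CPM in HFD-fed controls. On chow, Klkb1 was at 176, 175 and 163 CPM in KO livers and 176, 179 and 181 CPM in controls. The genotypes were apart on HFD (log2 FC 0.49, SE 0.035, adjusted p = 2.53e-13) and overlapped on chow (adjusted p = 0.199), where it was called lower with the length and GC trend removed (-0.080, adjusted p = 0.0468). Its neighbour F11, whose product activates factor IX, had 76.3, 78.6 and 75.7 CPM in HFD-fed KO livers and 53.2, 54.96 and 55.9 CPM in HFD-fed controls. Chow-fed livers had 85.96, 84.4 and 84.4 CPM of F11 in KO mice and 78.4, 77.1 and 77.8 CPM in controls. F11 rose on HFD (log2 FC 0.49, SE 0.039, adjusted p = 4.46e-12) and by less on chow (log2 FC 0.13, SE 0.038, adjusted p = 0.00916), with no overlap on either diet. Klkb1 shares 43.2% of its exonic bases with the same-strand gene Gm45753, which was listed at 0 in all libraries.

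Kng1, for kininogen, the source of bradykinin, had 1949, 1893 and 1823 CPM in HFD-fed KO livers and 1503, 1506 and 1484 CPM in HFD-fed controls. On chow, Kng1 was at 2730.1, 2668 and 2600.3 CPM in KO livers and 2255, 2265 and 2270.05 CPM in controls. It rose on HFD (log2 FC 0.33, SE 0.020, adjusted p = 3.26e-15) and on chow (log2 FC 0.24, SE 0.020, adjusted p = 1.43e-11), with groups apart on both diets. Its copy Kng2 rose by 0.21 on HFD and 0.32 on chow, with the limit that reads may fit both genes. F12, whose product starts the contact chain, rose on HFD (log2 FC 0.17, SE 0.028, adjusted p = 1.64e-05) and by 0.079 on chow, a call with an adjusted p of 0.0314 that was lost without chow-fed KO replicate 3, chow-fed control replicate 2 or chow-fed control replicate 3 (0.058 to 0.086, adjusted p = 0.0506 to 0.177). The call was also lost with upper quartile scaling (0.068, adjusted p = 0.0751) and with the length and GC trend removed (0.0091, adjusted p = 0.799).

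**Figure D4:**
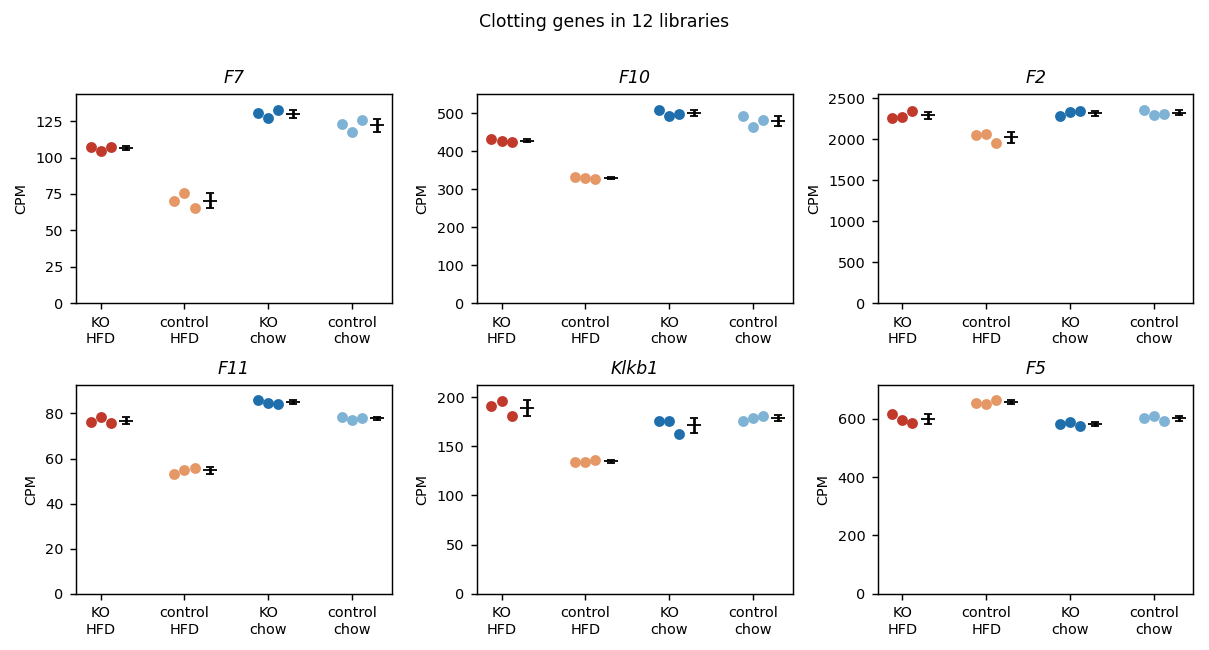
CPM (y axis, from 0) of F7, F10, F2, F11, Klkb1 and F5 in each of 12 liver libraries, with the mean and SD of each group. HFD-fed controls are lowest for F7, F10, F2, F11 and Klkb1 (F7 mean of 70.5 CPM against 106 CPM in HFD-fed KO livers) and highest for F5.

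F5, for the cofactor that factor X works with, was the one member that fell in KO livers on HFD. It had 617, 594 and 585 CPM in HFD-fed KO livers and 652, 651 and 664 CPM in HFD-fed controls. On chow, F5 was at 580.2, 589.6 and 574 CPM in KO livers and 601, 610.03 and 594 CPM in controls. The groups did not overlap on HFD (log2 FC -0.13, SE 0.024, adjusted p = 4.1e-05), and the chow difference of -0.049 was not called (adjusted p = 0.118), except with upper quartile scaling or the length and GC trend removed (-0.061 and -0.0996, adjusted p = 0.0461 and 0.000232). The difference on HFD was -0.0029 (adjusted p = 0.939) when the trend with transcript length and GC content was removed, and F5 is the longest of the 39 by principal transcript (7430 bases).

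The 2 serpin inhibitors of thrombin in the set, Serpinc1 (antithrombin) and Serpind1 (heparin cofactor II), were higher in KO livers on HFD and lower on chow. Serpinc1 had 2278, 2250.3 and 2275 CPM in HFD-fed KO livers and 2083, 2034 and 2069 CPM in HFD-fed controls. On chow, Serpinc1 was at 2382, 2379 and 2386 CPM in KO livers and 2598, 2502 and 2588 CPM in controls. Its groups were apart on both diets, with log2 FC 0.14, SE 0.017, adjusted p = 5.39e-08 on HFD and log2 FC -0.11, SE 0.017, adjusted p = 6.09e-06 on chow. Serpind1 had 521, 520.3 and 478 CPM in HFD-fed KO livers and 445, 443 and 442 CPM in HFD-fed controls. Chow-fed livers had 485, 468 and 465 CPM of Serpind1 in KO mice and 507, 505 and 481 CPM in controls. It rose on HFD (log2 FC 0.19, SE 0.029, adjusted p = 2.69e-06), and on chow, where the groups overlapped, its fall was close to the threshold (log2 FC -0.074, SE 0.029, adjusted p = 0.0493) and was not called in 8 of the 12 fits that left out 1 library (-0.074 to -0.062, adjusted p = 0.0507 to 0.167). Nor was this fall called with the DESeq2 test, DESeq2 size factors or a minimum of 5 CPM in a group mean (adjusted p = 0.0708, 0.0619 and 0.0939).

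Genes of clot dissolution and adhesion all rose in KO livers on both diets. Vtn, for vitronectin, an adhesion protein that also inhibits the terminal complement complex, had 3364, 3314 and 3388 CPM in HFD-fed KO livers and 2349.9, 2332 and 2241 CPM in HFD-fed controls. On chow, Vtn was at 4263, 4236 and 4357 CPM in KO livers and 3337, 3234 and 3344 CPM in controls. It rose 1.45-fold on HFD (log2 FC 0.54, SE 0.018, adjusted p = 1.79e-22) and 1.30-fold on chow (log2 FC 0.37, SE 0.017, adjusted p = 3.09e-18), with KO and control groups apart on each diet. Cpb2, for the carboxypeptidase that protects fibrin from plasmin, had 292, 298 and 269.98 CPM in HFD-fed KO livers and 218, 228 and 231 CPM in HFD-fed controls. Chow-fed livers had 516, 503 and 474 CPM of Cpb2 in KO mice and 351, 344 and 345 CPM in controls. The change was 1.27-fold on HFD (log2 FC 0.35, SE 0.034, adjusted p = 4.39e-10) and 1.43-fold on chow (log2 FC 0.52, SE 0.033, adjusted p = 9.62e-15), with no overlap. Plg, for plasminogen, had 2686, 2629.9 and 2685 CPM in HFD-fed KO livers and 2227, 2213 and 2219 CPM in HFD-fed controls. Chow-fed livers had 3093, 3084 and 3197 CPM of Plg in KO mice and 2862, 2812 and 2830.4 CPM in controls. Its differences were smaller, at 0.26 on HFD and 0.14 on chow (adjusted p = 6.63e-15 and 1.59e-08), with no overlap.

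Where the genotype difference itself depended on diet, the members split into 2 directions. The interaction, coded as the KO to control log2 fold change on HFD minus that on chow, was positive for 17 members and negative for 11, against 29.8% of all genes called (15.2% positive and 14.7% negative) and 58.6% of genes of at least 50 CPM (40.1% positive and 18.5% negative), a positive share near that of the members. The positive ones were C1ra, Mbl2, C6, C8b, C8g, F2, F7, F10, Proc, F13b, F11, Klkb1, Kng1, Serpinc1, Serpind1, Plg and Vtn, from 0.098 for Kng1 to 1.10 for C8b. The negative ones were C4b, Hc, C8a, Cfi, C4bp, Pros1, Fga, Fgb, Fgg, Kng2 and Cpb2, from -0.41 for Fga to -0.11 for Cfi. Called and at least 1.5-fold for the interaction were 2 of the 39 members, C8b and C6, against 11% of all tested genes. Of complement genes 5 were positive and 5 negative, and of clotting genes 12 and 6. The Kng2 interaction (-0.11, adjusted p = 0.0441) was not called in 9 of the 12 fits without 1 library (-0.12 to -0.084, adjusted p = 0.0700 to 0.143), with no count filter (adjusted p = 0.0648) or with the replicate number as a block (adjusted p = 0.0513). With the length and GC trend removed, Mbl2 (0.062, adjusted p = 0.231) and Kng2 (-0.097, adjusted p = 0.0569) were not called, as Hc and C8a were not. C3, C9 (-0.087, adjusted p = 0.0464), Masp2 (0.16, adjusted p = 0.00920), F12 (0.11, adjusted p = 0.00570) and F5 (0.097, adjusted p = 0.0103) were then called.

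**Figure D5:**
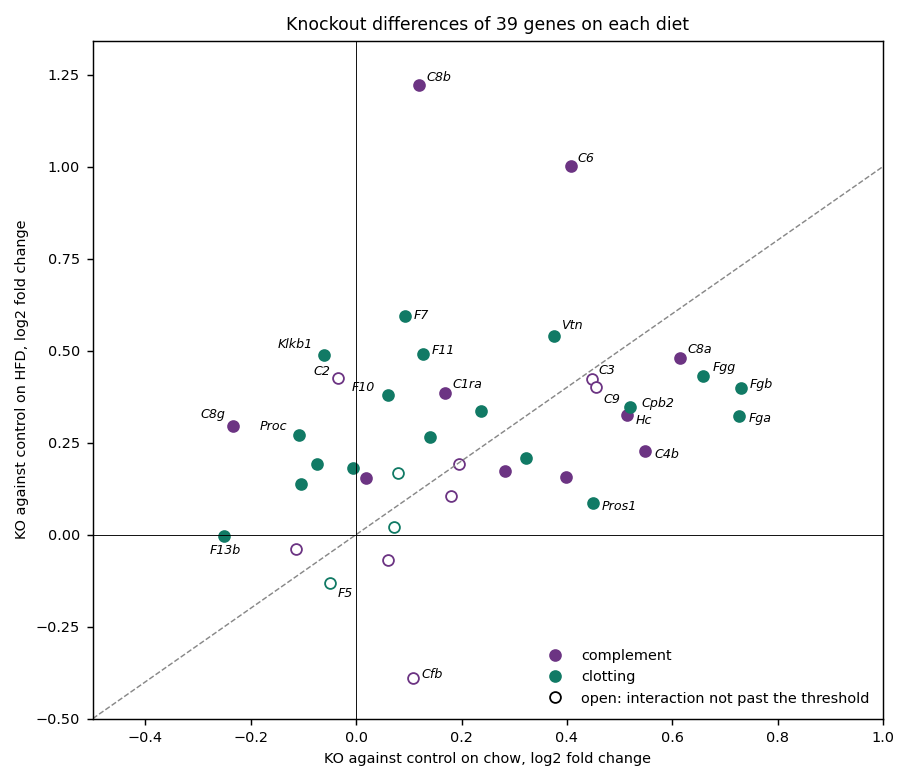
Each of the 39 genes by its KO to control log2 fold change on chow (x axis) and on HFD (y axis), purple for complement and green for clotting, with open points where the interaction was not called. The dashed line marks equal values on both diets: C8b, C6, F7 and Klkb1 lie above it, and the fibrinogen genes, C4b and Pros1 lie below it.

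Genes of the same pathways that are not among the 39 were counted in the same way. Of 28 tested of 32 further complement genes, 13 rose and 0 fell in KO livers on HFD, 18 rose and 6 fell in KO livers on chow, 6 fell and 8 rose on HFD in controls, and 12 fell and 5 rose on HFD in KO livers. Of all genes 16.7% rose and 15.6% fell in KO livers on HFD, and 15.8% rose and 15.3% fell on chow. On HFD against chow 18.8% rose and 18.9% fell in controls, and 18.5% rose and 18.1% fell in KO livers. The median log2 fold change of these 28 was 0.19 in KO livers on HFD and 0.42 on chow. C1qa, a subunit of C1q that macrophages make, averaged 32.9 ± 2.26 CPM in HFD-fed KO livers and 22.9 ± 0.449 CPM in HFD-fed controls and rose (log2 FC 0.53, SE 0.060, adjusted p = 1.34e-08), as 6 of 8 markers of Kupffer cells and macrophages did. C5ar1, a receptor for the C5 fragment on myeloid cells, was higher in chow-fed KO livers, at 2.01 ± 0.329 CPM, than in chow-fed controls, at 0.533 ± 0.207 CPM (log2 FC 1.91, SE 0.34, adjusted p = 2.92e-05).

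Of 28 tested of 33 further clotting and fibrinolysis genes, 7 rose and 4 fell in KO livers on HFD, 10 rose and 4 fell on chow, 7 fell and 9 rose on HFD in controls, and 12 fell and 4 rose on HFD in KO livers. The shares of all genes are those given above for the complement list. The median log2 fold change of these 28 was 0.014 in KO livers on HFD and 0.15 on chow. Over all genes it was -0.0073 and -0.0026. Fgl1, a fibrinogen-like liver protein, averaged 481 ± 14.7 CPM in HFD-fed KO livers and 209 ± 4.30 CPM in HFD-fed controls. Chow-fed livers had 1209 ± 30.5 CPM of Fgl1 in KO mice and 387 ± 5.19 CPM in controls, larger differences in the same directions as the fibrinogen chains. Vwf, for the platelet adhesion protein of endothelium, averaged 6.34 ± 0.374 CPM in HFD-fed KO livers and 13.8 ± 0.483 CPM in HFD-fed controls and fell (log2 FC -1.12, SE 0.11, adjusted p = 2.72e-10); of the 7 endothelial markers tested, which include Vwf, 2 rose and 2 fell in that comparison, and their part was not tested.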

How the data were processed

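Liver RNA of 12 libraries was sequenced, and the authors deposited 1 table of raw counts per Ensembl mouse gene identifier. Per the submitters' processing notes the tools named are Bowtie 0.12.2 and the build mm8; the counting program, its annotation and its strand setting were not found there. Symbols were matched through GENCODE M21 for 53360 of 53465 identifiers. The 39 genes and all other lists were chosen with earlier results of these data known.

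Counts were tested in R 4.3.3 with edgeR 4.0.16: filterByExpr by group, TMM scaling, 1 quasi-likelihood model of the 4 groups over 12 libraries, and Benjamini-Hochberg adjustment over 14778 genes at 0.05. The SE is the log2 fold change over the square root of F. With 3 against 3 libraries an exact permutation test cannot go below a two-sided p of 0.1, so none was used. CPM uses TMM-adjusted totals, and per-kilobase levels use the longest principal transcript of GENCODE M21, which may differ from the annotation counted. Members named with every library value are, in each role group, up to 3 with the largest called change in KO against control on HFD or HFD against chow in controls; up to 4 other genes a list were eligible by size of called change, of which some are named. Pairs of libraries within a group differed by 1.59 to 2.34 times the counting noise, so none was treated as a duplicate. Same-numbered libraries did not deviate together, so the model has no replicate block. Alternatives used other filters, scalings, DESeq2 1.42.0 and limma 3.58.1, the 2 groups alone, a variation of 20% for every gene, removal of the length and GC trend, and leaving out each library. The scripts were tested on simulated data.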

Additional observations from a re-analysis of the deposited data

Results flagged for a closer look

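For 28 of the 39 genes the difference between KO and control livers depended on diet by the test of the interaction itself (quasi-likelihood method of edgeR, Benjamini-Hochberg adjusted p from 2.62e-20 to 0.0441), and 29.8% of all genes were called by the same test. Among genes of at least 50 CPM, the closer background, 58.6% were called, 40.1% positive and 18.5% negative. Of the members 43.6% were positive, near that share, and 28.2% negative. Values are the log2 fold change of KO over control on HFD minus that on chow. Complement genes with a larger value on HFD were C8b (1.10), C6 (0.59), C8g (0.53), C1ra (0.21) and Mbl2 (0.14). Complement genes with a larger value on chow were C4b (-0.32), C4bp (-0.24), Hc (-0.19), C8a (-0.14) and Cfi (-0.11).

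Clotting proteases and inhibitors with a larger value on HFD were Klkb1 (0.55), F7 (0.50), Proc (0.38), F11 (0.36), F10 (0.32), Serpind1 (0.27), Serpinc1 (0.24), F2 (0.19) and Plg (0.12). F13b (0.25), Vtn (0.17) and Kng1 (0.098) had the same sign. The value was larger on chow for Fga (-0.41), Pros1 (-0.36), Fgb (-0.33), Fgg (-0.23), Cpb2 (-0.17) and Kng2 (-0.11). For Proc, C8g, Serpinc1 and Serpind1 the fitted difference was above 0 on HFD and below 0 on chow, and each was called in both comparisons. The Serpind1 call on chow was close to the threshold and was lost in 8 of the 12 edgeR fits without 1 library. It was also lost with the DESeq2 test, DESeq2 size factors or a minimum of 5 CPM in a group mean (adjusted p = 0.0708, 0.0619 and 0.0939).

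Some of these calls depended on the setting. Removing the trend of fold change with transcript length and GC content took away those of Mbl2 (0.062, adjusted p = 0.231), Hc (-0.038, adjusted p = 0.255), C8a (-0.028, adjusted p = 0.476) and Kng2 (-0.097, adjusted p = 0.0569). The Kng2 call was also lost in 9 of the 12 edgeR fits without 1 library, with adjusted p from 0.0700 to 0.143.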

How the results depend on the processing

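Over the filters, scalings, DESeq2, limma-voom, the 2 groups alone, trend removal and the fits without 1 library, the members called higher and lower in KO livers numbered 30 to 32 and 0 to 2 on HFD and 22 to 25 and 4 to 9 on chow. On HFD against chow they numbered 2 to 3 and 33 to 34 in controls and 4 to 8 and 25 to 28 in KO livers, and for the interaction 17 to 20 and 9 to 13. The 1 member lower in KO livers on HFD, F5, became 0 with the length and GC trend removed, with or without the replicate block, and 2 (with C1s1) without HFD-fed KO replicate 3, with 1 to 2 over all fits without 1 library. Requiring a fold of at least 1.5 left 3 higher and 0 lower on HFD, 4 and 0 on chow, 0 and 12 for diet in controls, 1 and 12 for diet in KO livers, and 2 and 0 for the interaction. Setting every gene's variation at 20%, against an estimated 3.95%, left 2 and 0, 2 and 0, 0 and 8, 0 and 9, and 1 and 0 in the same order. Of all 14778 genes, that setting called 534 on HFD (204 higher) and 931 on chow (662 higher). It called 1194 for diet in controls (600 higher), 1102 for diet in KO livers (305 higher) and 510 for the interaction (152 positive). With the length and GC trend removed, 4 fitted values that were called before or after the removal changed sign. F2 for diet in KO livers became 0.0801 and was then called (adjusted p = 0.000115). Serpinc1 for diet in KO livers became 0.0201 and was no longer called (adjusted p = 0.353). The interactions of C3 and F5 became 0.177 and 0.0967, both then called (adjusted p = 7.88e-12 and 0.0103). Changes of sign in values called neither before nor after are not counted here. The interactions of Hc, C8a, Mbl2 and Kng2 were no longer called. With the replicate block added the 4 values were 0.0801, 0.0201, 0.177 and 0.0966. The cause was not tested. That removal also moved the calls over all genes, to 2955 higher of 4685 against 2475 of 4784 in KO livers on HFD, 1931 of 4988 against 2341 of 4604 on chow, 3882 of 5893 against 2732 of 5412 for diet in KO livers, and 3179 of 4656 against 2241 of 4411 for the interaction. The replicate numbers do not pair libraries by any label, and over 18 same-number pairs the deviations correlated at -0.262 to 0.256, with 4 of 12 libraries closest to their own number; the replicate block took away 1 member call (Kng2, interaction, adjusted p = 0.0513) and changed no other. Leaving out 1 library took away at least once 7 of the 156 calls over 195 member tests, and C2 and Cfb, with 163 counts or fewer per library, were limited by depth.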
